A study of Mus musculus with 2 samples.

Results

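A set of 10 genes that restrain Wnt signalling was followed in colon adenomas and in the normal colon of mice: Notum, Wif1, Nkd1, Nkd2, Axin2, Dkk2, Dkk3, Apcdd1, Znrf3 and Rnf43. They were picked by symbol, 10 of the 35529 genes in the deposited table, and the choice was made with their values in these same pools known. Their levels are therefore given as a description, and nothing is tested with them. The adenoma pool held RNA from adenomas of the colon of C57BL/6 wild-type mice given azoxymethane (AOM), a colon carcinogen, together with dextran sodium sulfate (DSS), an agent that damages the lining of the colon. The control pool held RNA from the normal colon of C57BL/6 wild-type mice that received neither agent. Adenoma tissue and exposure to both agents thus differ together between the pools and cannot be told apart. Both are whole tissue, the RNA of 6 individuals was combined in each pool before sequencing, and each pool was sequenced as 1 library. The labels give no age, sex, dose or time. With 1 library per group there is no replicate check of any difference below, and intervals cover counting error only.

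Wnt ligands are secreted lipoproteins that bind a Frizzled receptor and an Lrp5 or Lrp6 co-receptor, which halts the degradation of beta-catenin and lets it switch on target genes together with TCF and LEF factors. In the colon this signal maintains the stem cells at the base of the crypt. Several target genes encode inhibitors, so that the pathway limits itself at successive steps. Notum, Wif1, Dkk2 and Dkk3 encode secreted proteins, Apcdd1, Rnf43 and Znrf3 encode membrane proteins, and Nkd1, Nkd2 and Axin2 encode proteins inside the cell, so only some of the genes code for secreted inhibitors.

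Promoter sequences were found for 6 of the 10 genes in the RefSeq table of build GRCm38.p6. They are windows from 250 bases before to 50 bases after the annotated start. No window was found for Notum, Dkk3, Apcdd1 and Znrf3, which were therefore not searched. The windows of 4 genes are printed because they set 3 genes that were much higher in adenomas beside Nkd2, the paralog of Nkd1 that was not. Lower case is the plain sequence, 5′ to 3′ on the strand of the gene, and capitals mark CTTTG, the shared core of TCF and LEF binding sequences, and TATAAA, the TATA box, on either strand. The windows are chr10:121033754-121034053 (plus strand) for Wif1, chr3:132085042-132085341 (plus) for Dkk2, chr8:88527383-88527682 (plus) for Nkd1 and chr13:73847582-73847881 (minus) for Nkd2.
Wif1: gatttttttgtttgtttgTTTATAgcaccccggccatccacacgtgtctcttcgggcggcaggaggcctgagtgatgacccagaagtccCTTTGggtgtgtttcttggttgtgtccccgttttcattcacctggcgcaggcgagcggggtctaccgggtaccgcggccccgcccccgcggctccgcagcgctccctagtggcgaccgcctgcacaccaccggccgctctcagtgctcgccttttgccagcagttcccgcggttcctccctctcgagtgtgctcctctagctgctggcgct
Dkk2: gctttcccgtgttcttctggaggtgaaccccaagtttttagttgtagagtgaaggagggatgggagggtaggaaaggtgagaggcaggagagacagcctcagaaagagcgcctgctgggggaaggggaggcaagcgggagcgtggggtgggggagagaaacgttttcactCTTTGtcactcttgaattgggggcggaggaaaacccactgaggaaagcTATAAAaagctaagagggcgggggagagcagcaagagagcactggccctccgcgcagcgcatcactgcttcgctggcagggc
Nkd1: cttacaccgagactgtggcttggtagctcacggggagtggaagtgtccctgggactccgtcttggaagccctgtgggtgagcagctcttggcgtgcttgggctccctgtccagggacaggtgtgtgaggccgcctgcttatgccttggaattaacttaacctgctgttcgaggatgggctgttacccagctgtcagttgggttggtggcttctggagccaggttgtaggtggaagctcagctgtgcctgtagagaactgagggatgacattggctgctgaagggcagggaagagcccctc
Nkd2: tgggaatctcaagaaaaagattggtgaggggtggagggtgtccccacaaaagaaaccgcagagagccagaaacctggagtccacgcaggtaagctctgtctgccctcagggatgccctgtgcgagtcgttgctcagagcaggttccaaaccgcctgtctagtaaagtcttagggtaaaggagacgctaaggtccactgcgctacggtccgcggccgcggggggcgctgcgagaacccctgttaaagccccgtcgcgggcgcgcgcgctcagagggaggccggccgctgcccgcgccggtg

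The 6-base sequence CTTTGA, which extends the core and was searched on both strands, was in 0 of the 7 windows of these 6 genes (Rnf43 has 2 starts), while 16.0% of all 32851 promoter windows of the table hold it. Its first 5 bases, CTTTG, necessarily overlap it and were in 2 windows, 161 bases before the start of Wif1 and 80 bases before that of Dkk2, against 53.9% of all windows. The TATA box sequence TATAAA lay 32 bases before the start of Dkk2 and, on the opposite strand, 232 bases before that of Wif1, and 13.6% of all windows hold it. The printed windows of Nkd1 and Nkd2 hold none of the 3 sequences, so these letters do not set the windows of the paralogs apart. The absence of these letters from a window of 300 bases says nothing about regulation elsewhere.

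The unit of the table is RPKM, in which reads are divided by the length of the gene and by the size of the library, so that levels of different genes can be compared. The recovered read totals were 33174626 for the adenoma pool and 29548883 for the control pool. Epithelial markers were present in both pools, with the 8 markers summing to 5868 RPKM in the adenoma pool and 9217 RPKM in the control pool. Of the 8, 4 were lower in adenomas by 2-fold or more. Most of both sums was Krt8 (2514 and 4237 RPKM) and Krt19 (1950 and 3245 RPKM), so scaling to equal sums rests mainly on them. Krt18 was higher in adenomas (483 and 327 RPKM). The next sums are in RPKM, in the adenoma and then the control pool. For 8 fibroblast markers they were 465 and 426, with Dcn alone at 250 and 145 and a median log2 fold change of -0.25. Smooth muscle (7 markers) gave 1772 and 2134, endothelium (5) 15.2 and 32.5, and enteric glia (4) 2.40 and 4.42. For 5 leukocyte markers they were 49.7 and 47.4, mostly Cd79a (22.0 and 21.0) and Cd68 (20.4 and 14.7). Ptprc was at 3.70 and 5.95 and Itgam at 2.53 and 4.69. The 6 pancreatic acinar markers summed to 292 RPKM in the adenoma pool and 323 RPKM in the control pool, nearly all of it Cela1 at 291 and 321 RPKM, while Prss1, Cpa1 and Ctrb1 were listed at 0 in both. The 6 markers of squamous epithelium summed to 30.8 RPKM in the adenoma pool and 3.64 RPKM in the control pool. The 3 that reached 1 RPKM in a pool were all higher in adenomas by 2-fold or more. They were Krt14 (19.0 and 2.02 RPKM), Krt13 (6.87 and 1.06 RPKM) and Krt15 (4.76 and 0.531 RPKM). Trp63, the defining factor of squamous epithelium, was listed at 0 in both pools. The part of these differences in the results below was not tested. In such tissue RNA, fewer cells of a type and less RNA per cell cannot be told apart.

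As a group, 6 of the 10 genes were higher in adenomas by 2-fold or more and 0 were lower by as much, on the scale log2((adenoma RPKM + 1)/(control RPKM + 1)). Of all 16517 genes that reached 1 RPKM in a pool, 14.0% were that much higher and 11.0% that much lower. Because the genes were chosen from this contrast, nothing is read from that difference. The median log2 fold change was 2.22 for the 10 genes, -0.02 for all genes and -0.17 for genes of type mRNA, as the 10 are. Among genes of type mRNA, short transcripts tended to higher values in adenomas than long ones, and length adjustment takes out this trend. With it, 7 of the 10 were higher by 2-fold or more and 0 lower, beside 5.0% and 10.9% of 15509 genes with a known length. At 1.5-fold 7 were higher and 0 lower, beside 25.7% and 24.6% of all genes, and at 4-fold 5 were higher and 0 lower, beside 2.02% and 1.08%. Among genes of type mRNA alone, where the 2-fold counts of the 10 genes do not change, 10.4% were higher and 13.1% lower. All 10 passed the filter of 1 RPKM, 4 of them only through the adenoma pool (Notum, Wif1, Dkk2 and Apcdd1) and 1 only through the control pool (Nkd2).

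**Figure D1:**
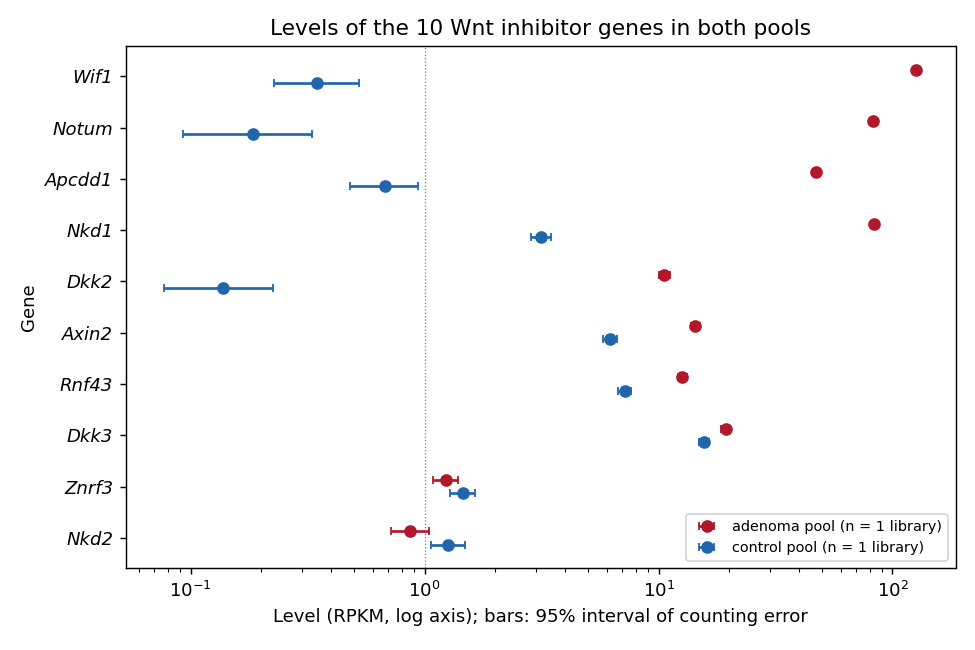
Level of each of the 10 genes in RPKM on a log axis, in the adenoma pool (red) and the control pool (blue), 1 library each, with 95% intervals of counting error. Wif1, Notum, Apcdd1, Nkd1 and Dkk2 are far apart between the pools, while Dkk3, Znrf3 and Nkd2 lie close together.

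The secreted inhibitors ranged from Wif1 and Notum, the 2 of the 10 genes with the highest log2 fold changes, to Dkk3, which was within 2-fold. Wif1 encodes a protein that binds Wnt ligands outside the cell, and its gene spans chromosome 10 from 121033960 to 121100650 on the plus strand in the GENCODE M21 annotation of GRCm38. It stood at 126 RPKM in the adenoma pool and 0.347 RPKM in the control pool, or about 9571 and 24 reads. The ratio was 362 (239 to 555), and the log2 fold change of 6.56 was the 9th highest of the 16517 genes.

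Notum encodes an extracellular carboxylesterase that removes the palmitoleate from Wnt ligands and so inactivates them. Its gene lies on chromosome 11 from 120653788 to 120661175 on the minus strand. It was at 82.2 RPKM in the adenoma pool and 0.184 RPKM in the control pool, about 5484 and 11 reads. The ratio of 446 rests on those few control reads, and its interval runs from 248 to 890. Its log2 fold change of 6.13 ranked 13 among all genes. By RPKM, Wif1 was 1.53 times as abundant as Notum in adenomas, while in normal colon their counting intervals overlapped (0.227 to 0.527 and 0.0924 to 0.331 RPKM). Annotated antisense transcripts share exon bases with Notum (708 bases with Notumos and 210 with Myadml2os, of 2408), and whether the counting used strand is not given in the sources used here, so their reads cannot be told apart.

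The Dickkopf genes did not move alike. Dkk2, on the plus strand of chromosome 3 from 132085292 to 132180304, encodes a ligand of Lrp5 and Lrp6 that can block or, in some settings, assist Wnt signalling. It was at 10.6 RPKM in the adenoma pool and 0.137 RPKM in the control pool, about 1301 and 15 reads, a ratio of 77.2 (46.7 to 138). Dkk3, on the minus strand of chromosome 7 from 112116017 to 112159057, encodes the divergent family member, whose role in Wnt signalling is less settled. Its level was 19.3 RPKM in the adenoma pool and 15.6 RPKM in the control pool, a ratio of 1.24 (1.16 to 1.32) that lies within 2-fold. Its log2 fold change of 0.29 turned to -0.09 with both pools rescaled to equal RPKM sums. Relative to the median of all genes, which also moved, the value for Dkk3 was 0.31 as deposited and 0.26 after rescaling. By RPKM, Dkk3 was 1.83 times as abundant as Dkk2 in adenomas and 114 times as abundant in normal colon, so Dkk2 stayed below its paralog in both pools.

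Among the membrane proteins, Apcdd1 stood apart from the ubiquitin ligases. Apcdd1 encodes a glycoprotein that binds Wnt ligands and Lrp5 and is known from a hereditary hair loss in humans. The gene is on the plus strand of chromosome 18 from 62922231 to 62961179. It was at 47.3 RPKM in the adenoma pool and 0.677 RPKM in the control pool, about 2961 and 38 reads, a ratio of 69.8 (50.4 to 98.3). Its log2 fold change was 4.85, rank 28 of all genes.

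Rnf43 and Znrf3 encode related ubiquitin ligases that mark Frizzled receptors for removal from the cell surface, and whose action R-spondins block. Rnf43, on the plus strand of chromosome 11 from 87662722 to 87735539, was at 12.6 RPKM in the adenoma pool and 7.18 RPKM in the control pool, 1.76-fold higher (1.63 to 1.91) and within 2-fold at a log2 fold change of 0.74. After adjustment for transcript length that value was 1.08, past 2-fold. Znrf3, on the minus strand of chromosome 11 from 5276324 to 5444847, was low in both pools, at 1.23 RPKM in the adenoma pool and 1.45 RPKM in the control pool. The ratio of 0.846 had an interval of 0.712 to 1.01, so no difference was detectable by read counting. The sign of its log2 fold change, -0.14, turned to 0.39 after length adjustment and to 0.24 when the pools were scaled to equal epithelial marker sums. That scaling put the median of all genes at 0.52. Relative to the median, the value for Znrf3 was -0.12 as deposited and -0.28 at equal epithelial marker sums. By RPKM, Rnf43 exceeded Znrf3 10.3 times in adenomas and 4.93 times in normal colon.

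The intracellular regulators again included a divergent pair. The Naked cuticle genes encode proteins that bind Dishevelled. Nkd1, on the plus strand of chromosome 8 from 88521354 to 88594884, was at 83.5 RPKM in the adenoma pool and 3.15 RPKM in the control pool, about 11310 and 380 reads. The ratio was 26.5 (23.9 to 29.4), and the log2 fold change of 4.35 ranked 44 of all genes. The promoter window of Nkd1 printed above begins inside this span because RefSeq places that start downstream of the first GENCODE start.

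Nkd2, on the minus strand of chromosome 13 from 73818534 to 73847631, was at 0.870 RPKM in the adenoma pool and 1.26 RPKM in the control pool, about 116 and 150 reads. This was a ratio of 0.690 (0.536 to 0.884), within 2-fold. The log2 fold change of -0.27 became 0.01 after length adjustment and 0.06 at equal epithelial marker sums. Relative to the median of all genes, the value for Nkd2 was -0.25 as deposited and -0.46 at equal epithelial marker sums. Nkd1 was thus 96.0 times as abundant as Nkd2 by RPKM in adenomas and 2.50 times as abundant in normal colon.

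Axin2 encodes the scaffold of the beta-catenin destruction complex and is the classical feedback target of the pathway, yet its difference was small beside those of Notum, Wif1 and Nkd1. The gene lies on the plus strand of chromosome 11 from 108920349 to 108950783. It was at 14.4 RPKM in the adenoma pool and 6.21 RPKM in the control pool, about 2030 and 782 reads, a ratio of 2.31 (2.13 to 2.51). Its log2 fold change of 1.09 was just past 2-fold and fell short of it, at 0.73, with pools rescaled to equal RPKM sums. That rescaling moved the median of all genes by -0.33, and relative to the median the value for Axin2 was 1.11 as deposited and 1.08 after rescaling. The antisense gene Gm11670 shares 209 of the 5506 annotated exon bases of Axin2, and its reads cannot be told apart either.

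**Figure D2:**
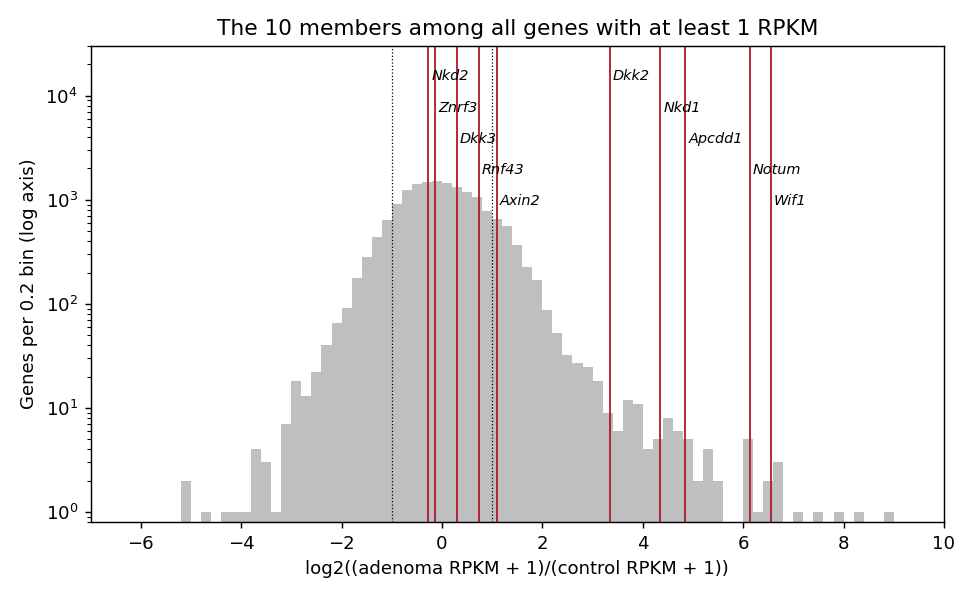
Number of genes (log axis) by log2((adenoma RPKM + 1)/(control RPKM + 1)) for the 16517 genes that reached 1 RPKM in a pool, with red lines at the 10 named genes and dotted lines at 2-fold. Wif1 at 6.56 and Notum at 6.13 lie in the far right tail, while Nkd2 at -0.27 and Znrf3 at -0.14 lie near the centre.

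The order of the genes by level was different in the pools. In adenomas Wif1 was the most abundant, followed by Nkd1 and Notum, whose counting intervals overlapped (82.0 to 85.1 and 80.0 to 84.4 RPKM), then Apcdd1, Dkk3, Axin2, Rnf43, Dkk2, Znrf3 and Nkd2, with no overlap between the intervals of these neighbours. In normal colon Dkk3 led, followed by Rnf43, Axin2 and Nkd1, then Znrf3 and Nkd2, whose intervals overlapped. The intervals of neighbours also overlapped along the rest of the control order, Apcdd1, Wif1, Notum and Dkk2, which were all under 1 RPKM.

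Summed over the 10 genes, the level was 398 RPKM in the adenoma pool and 36.2 RPKM in the control pool, an 11.0-fold ratio. Wif1 made up 31.6% of the adenoma sum, Nkd1 21.0%, Notum 20.7% and Apcdd1 11.9%, together 85.2%. The same genes made up 0.958%, 8.70%, 0.509% and 1.87% of the control sum. Dkk3 made up 4.86% of the adenoma sum and 43.1% of the control sum, Rnf43 3.18% and 19.8%, and Axin2 3.61% and 17.1%. Of the 10 genes, 8 were above 10 RPKM in the adenoma pool and 1, Dkk3, in the control pool.

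The rest of the pathway was spread to both sides. Of 104 other Wnt pathway genes in 6 lists found in the table, 75 passed the filter. Of these, 16 were higher by 2-fold or more and 13 lower, 21.3% and 17.3%, beside 14.0% and 11.0% of all genes. All 75 are of type mRNA, and of the genes of that type 10.4% were higher and 13.1% lower. The median log2 fold change of the 75 was -0.26, against -0.02 for all genes and -0.17 for mRNA genes. After length adjustment it was -0.15, against -0.19 for all genes with a known length. The split of calls depended on the setting, for these genes and for all genes. As deposited, 55.2% of calls were higher, beside 56.1% for all genes, and after length adjustment the shares moved in opposite directions. At equal RPKM sums 13 were higher and 18 lower (41.9% of calls higher, beside 27.6% for all genes). After length adjustment it was 16 and 3 (84.2%, beside 31.4%). At equal epithelial marker sums it was 19 and 3 (86.4%, beside 90.0%), with the median of all genes at 0.52. There the negative medians given below turned positive for the antagonists (0.19), for acylation and secretion (0.46) and for the intracellular genes (0.11). Each of these was still below the median of all genes.

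Other secreted antagonists and inhibitory receptors were mostly within 2-fold. Of 10 that passed the filter, 1 was higher by 2-fold or more and 0 lower (median -0.27). The exception was Igfbp4, an IGF-binding protein that also binds Lrp6, at 156 RPKM in the adenoma pool and 55.7 RPKM in the control pool, 2.80-fold higher (2.72 to 2.88). It was also the most abundant of the list.

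The Wnt ligands, which Notum and Wif1 act on, were split. Of 7 ligands past the filter 3 were higher by 2-fold or more and 1 lower (median 0.53). Wnt6 was at 23.8 RPKM in the adenoma pool and 0.573 RPKM in the control pool, 41.6-fold higher (29.8 to 60.1). Wnt10a was at 16.8 RPKM in the adenoma pool and listed at 0 in the control pool, at least 408-fold higher against a floor of 3 control reads. Wnt16 was at 1.41 RPKM in the adenoma pool and listed at 0 in the control pool, at least 23.1-fold higher by the same floor and within 2-fold after length adjustment, at a log2 value of 0.86. Wnt2b was the exception in the other direction, at 0.768 RPKM in the adenoma pool and 6.12 RPKM in the control pool, 7.98-fold lower (6.31 to 10.1).

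The receptors, which Rnf43, Znrf3, Dkk2 and Apcdd1 act on, were lower more often than higher as deposited. After length adjustment and at equal epithelial marker sums 4 were higher and 1 lower each time. Of all genes, 775 were higher and 1692 lower after length adjustment, and 4936 and 549 at equal epithelial marker sums. Of 18 receptors, co-receptors and R-spondins past the filter 3 were higher by 2-fold or more and 8 lower (median -0.69). The median of the receptors was -0.38 after length adjustment and -0.18 at equal epithelial marker sums. For all genes it was -0.19 and 0.52, so the receptor median was the lower one in both settings. Lrp6 was at 2.47 RPKM in the adenoma pool and 10.6 RPKM in the control pool, 4.30-fold lower (3.97 to 4.66), and it alone of the 8 stayed past 2-fold lower after length adjustment, at -1.11. Lrp5 was at 9.07 and 23.5 RPKM in the adenoma and control pools, 2.60-fold lower (2.45 to 2.76).

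On the log2(RPKM + 1) scale the Frizzled genes with the most negative values were Fzd5 at -1.46, or 3.79-fold lower by RPKM (3.38 to 4.25), and Fzd7 at -1.27, or 3.65-fold lower (3.06 to 4.34). By the ratio of RPKM alone, the less abundant Fzd4 and Fzd8 were further apart, 5.58-fold lower (4.32 to 7.43) and 3.86-fold lower. Fzd10 went the other way, at 2.24 RPKM in the adenoma pool and 0.136 RPKM in the control pool. Lgr6, an R-spondin receptor, was at 2.01 RPKM in the adenoma pool and 0.0560 RPKM in the control pool, about 446 and 11 reads. Lgr5, the stem cell receptor of the same family, was at 4.34 RPKM in the adenoma pool and 0.920 RPKM in the control pool, while Lgr4, the most abundant of the list by the mean of both pools, was at 10.5 and 24.7 RPKM. In the adenoma pool alone Ryk (17.8 RPKM) and Ptk7 (11.5 RPKM) were above it.

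Of 5 genes of Wnt acylation, secretion and glypicans, 1 was higher by 2-fold or more and 0 lower (median -0.14). It was Gpc1, a cell surface proteoglycan of the glypican family to which Notum can bind, at 21.0 RPKM in the adenoma pool and 5.08 RPKM in the control pool, 4.14-fold higher (3.79 to 4.52). Wls, the carrier that takes Wnt ligands to the cell surface, was the most abundant, at 39.5 RPKM in the adenoma pool and 41.7 RPKM in the control pool.

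Inside the cell, 2 of 19 Dishevelled, destruction complex and nuclear genes were higher by 2-fold or more and 4 lower (median -0.48), and 2 higher and 1 lower after length adjustment. The higher genes were the nuclear partners of beta-catenin Tcf7, at 13.3 RPKM in the adenoma pool and 4.96 RPKM in the control pool, and Lef1, at 1.57 and 0.275 RPKM. Neither call was kept at equal RPKM sums, where 0 genes of the list were higher and 5 lower and the median of all genes was -0.35. Neither was kept with a pseudocount of 5 RPKM, and 1 gene was higher with upper-quartile scaling. Tcf7l1, a TCF factor that often acts as a repressor, was at 4.31 RPKM in the adenoma pool and 15.5 RPKM in the control pool, 3.59-fold lower, and remained past 2-fold after length adjustment at -1.53. The co-activators Bcl9l and Bcl9 were lower by 3.55-fold (3.10 to 4.08) and by 3.34-fold (2.86 to 3.92). The co-repressor Tle4 was 2.26-fold lower (2.08 to 2.47), and all 3 were within 2-fold after length adjustment. Ctnnb1, which encodes beta-catenin itself, was at 211 RPKM in the adenoma pool and 191 RPKM in the control pool.

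Of 16 other intestinal Wnt target genes 6 were higher by 2-fold or more and 0 lower (median 0.12), and length adjustment left these counts as they were. Equal RPKM sums gave 5 higher and 2 lower and a median of -0.26, with the median of all genes at -0.35. Several of these genes had been described in the same pools before, so the count is not independent evidence. Sp5, a transcription factor that acts in feedback on Wnt targets, was at 12.9 RPKM in the adenoma pool and 0.161 RPKM in the control pool, about 901 and 10 reads, a ratio of 80.1 (43.4 to 168). Prox1, a homeobox factor, was 31.6-fold higher (25.4 to 39.9) and Tnfrsf19, a TNF receptor family member of crypt cells, 9.83-fold higher (7.84 to 12.6). The matrix protease Mmp7 was at 328 RPKM in the adenoma pool and 0.116 RPKM in the control pool, where it rests on about 4 reads.

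**Figure D3:**
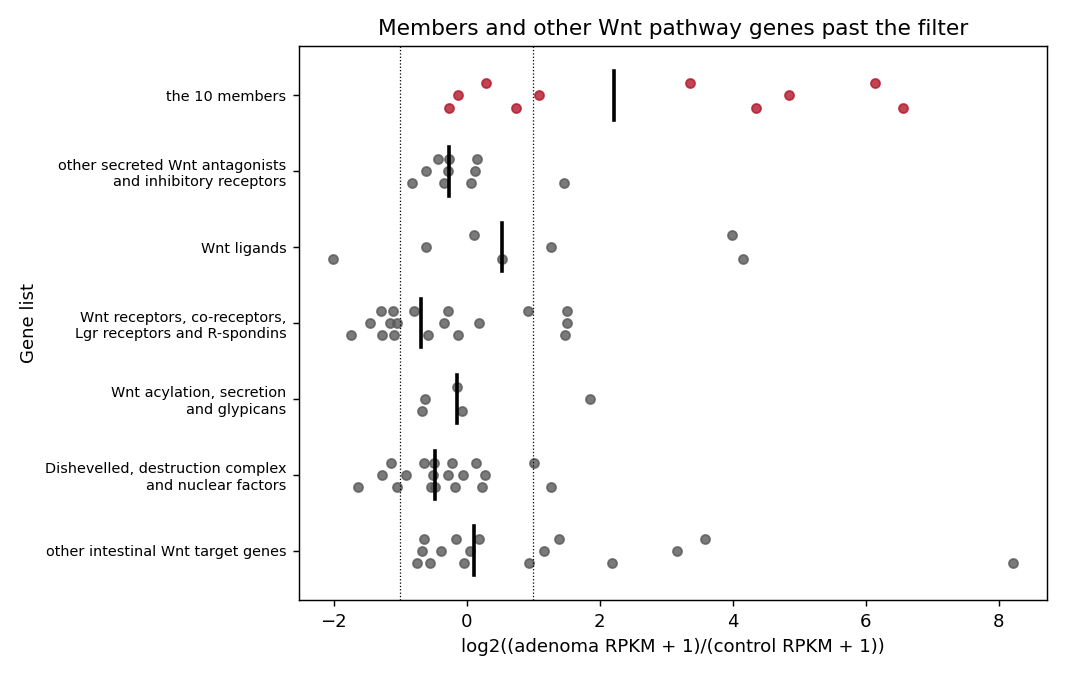
Each point is a gene past the filter of 1 RPKM, placed by log2((adenoma RPKM + 1)/(control RPKM + 1)), with the 10 named genes in red, 6 other lists of the pathway in grey, black bars at medians and dotted lines at 2-fold. The median is 2.22 for the 10 genes, which were chosen from this contrast, and between -0.69 and 0.53 for the other lists.

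The genes nearest to Notum, Wif1 and Nkd1 in both levels at once were found by the distance between log2(RPKM + 1) values over the 2 pools, among genes of type mRNA. With only 2 pools many unrelated genes share such a pattern. For Notum they were the alpha-defensins Defa3 and Defa17, at 75.2 and 65.9 RPKM in the adenoma pool and listed at 0 in the control pool, and LOC100505096, at distances of 0.27, 0.40 and 0.44. The values of these defensins are uncertain, since reads of such similar gene copies can be split among them. For Wif1 they were S100a8 (120 RPKM in the adenoma pool, 0.777 RPKM in the control pool), S100a9 (175 and 0.693 RPKM) and Notum itself, at distances of 0.40, 0.58 and 0.64. For Nkd1 they were an immunoglobulin kappa variable segment, Krt23 and Bex1, at distances of 0.17, 0.38 and 0.43.

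**Figure D4:**
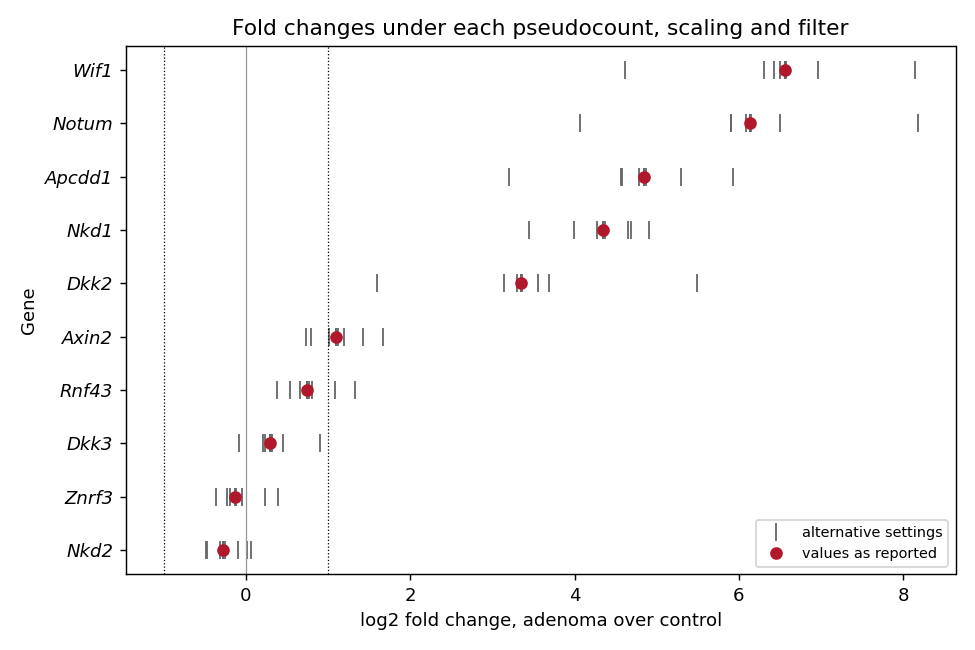
The log2 fold change of each of the 10 genes as reported (red) and under up to 10 alternative pseudocounts, filters and scalings (grey ticks), with dotted lines at 2-fold. Ticks for other filters and for mRNA genes alone equal the reported value by construction. Wif1, Notum, Apcdd1, Nkd1 and Dkk2 stay past 2-fold at every tick. Axin2 and Rnf43 cross that line, and Dkk3, Znrf3 and Nkd2 cross 0 but stay within 2-fold.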

How the data were processed

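Total RNA was extracted with Trizol and pooled from 6 individuals per group, per the labels. The genome build is GRCh37 per the submitters' processing notes, which is a human assembly, while the symbols are mouse symbols. The aligner, counting method, strandedness and annotation are not given in the sources used here, and the sequencing platform is named differently in the labels and the series design. The deposited table holds RPKM for both pools in 1 column each, beside symbols and gene types, per the file headers.

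Read totals were recovered from short single-exon genes, where 1 read gives the same product of RPKM and length. With them 72.0% of 200 short genes in the adenoma pool and 70.5% of 183 in the control pool were within 0.01 of a whole read. Approximate reads per gene used the longest RefSeq-matched GENCODE M21 transcript, or the longest transcript where none matched, found for 15509 of 16517 genes (93.9%). Intervals are 95% and exact, from the binomial (Clopper-Pearson) for ratios and from the Poisson for levels. They cover counting error only, and the authors' lengths may differ. Log2 fold changes used a pseudocount of 1 RPKM, so that changes of low genes are understated, and ratios in the text are of RPKM without it. Length adjustment subtracted the running median across 20 length bins of mRNA genes, taken relative to their overall median. Adjusted values are therefore not centred at 0, and their median over all genes was -0.19. The adjustment lowered short genes and raised long ones, as for Mmp7 (1068 bases, 8.20 to 7.42) and Lrp6 (9368 bases, -1.74 to -1.11). The source of this length trend was not tested, and it bears on all modest differences given without the adjustment. The arithmetic was checked on simulated reads.

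No test and no p-value could be had from 1 library per group. The members and lists were chosen with earlier results of these data known. From each pathway list the text names up to 4 genes at least 2-fold apart in each direction, and its most abundant gene. The alternatives were other pseudocounts, filters, scalings and thresholds, length adjustment and mRNA genes alone. Scaling to equal epithelial marker sums was added after the data were seen. Python 3.11.15, pandas 2.3.3 and scipy 1.17.1 were used.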

Additional observations from a re-analysis of the deposited data

How the results depend on the processing

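Of the 10 genes, 5 to 7 were higher and 0 lower in every alternative run, by the threshold of that run (2-fold, 1.5-fold or 4-fold). Nkd2 and Znrf3 did not reach the filter of 5 RPKM and were not counted there. Another filter, or mRNA genes alone, cannot change the fold change of a gene that is kept. Of all genes, 2316 were higher as deposited, and from 333 (at 4-fold) to 4936 (at equal epithelial marker sums) in the alternatives. Wif1 ranged from 4.61 to 8.14 on the log2 scale, Notum from 4.07 to 8.18, Nkd1 from 3.44 to 4.91, Apcdd1 from 3.20 to 5.93 and Dkk2 from 1.60 to 5.49, the lowest with a pseudocount of 5 RPKM and the highest, except for Nkd1, with 0.1. Axin2 was within 2-fold with that higher pseudocount (0.79) and at equal RPKM sums (0.73). Rnf43 was past it after length adjustment (1.08) and at equal epithelial marker sums (1.32). Relative to the median of all genes, the value for Rnf43 was 0.76 as deposited and 0.81 at equal epithelial marker sums. Dkk3, Znrf3 and Nkd2 stayed within 2-fold.

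Counts over other genes moved more. Of the other Wnt pathway genes, 9 were higher and 3 lower with a pseudocount of 5 RPKM, 7 were lower with a filter of 5 RPKM, 3 lower after length adjustment, 24 lower at 1.5-fold, 6 higher and 1 lower at 4-fold, and 3 lower at equal epithelial marker sums. Of all genes, 2858 were lower with a pseudocount of 0.1 RPKM, and 1309 were higher and 654 lower with 5 RPKM. Equal RPKM sums gave 1274 higher and 3347 lower (27.6% higher, against 56.1% as deposited), length adjustment 775 higher and mRNA genes alone 1346 higher. There were 4245 higher and 4067 lower at 1.5-fold, and 333 and 179 at 4-fold. Equal epithelial marker sums gave 4936 higher and 549 lower and moved the median of all genes by 0.54. For the thresholds, filters, pseudocounts and mRNA genes alone the change follows from their construction. It also does for the rescalings, which apply a common factor to all genes, and for length adjustment, which subtracts a value set by length. Why the sums differ between the pools and why values follow length was not tested. No paired analysis was possible because each group holds 1 library. Depth limits Notum, Wif1, Dkk2 and Apcdd1, which were under 1 RPKM in the control pool and whose ratios rest on 11 to 38 control reads there, and more so other pathway genes such as Sp5 with 10 and Mmp7 with 4.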

Other observations

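Further genes around the 10 inhibitors were chosen after their values were seen, for their roles. The other Dickkopf genes were scarcely detected, with Dkk1 listed at 0 in both pools and Dkk4 at 0.0229 RPKM in the adenoma pool, about 1 read, and listed at 0 in the control pool. The Kremen genes, which encode Dickkopf receptors, were within 2-fold on the log2(RPKM + 1) scale, Kremen1 at 4.74 RPKM in the adenoma pool and 9.20 RPKM in the control pool and Kremen2 at 3.98 and 5.33 RPKM. The secreted Frizzled-related genes, which bind Wnt ligands as Wif1 does, did not share its difference. Sfrp1 was at 7.47 RPKM in the adenoma pool and 6.81 RPKM in the control pool, and Sfrp5 at 0.825 and 1.78 RPKM. The R-spondin genes, whose products act against Rnf43 and Znrf3, were low, with Rspo3 at 1.31 RPKM in the adenoma pool and 1.81 RPKM in the control pool and Rspo1 at 0.674 and 0.258 RPKM. Of the Dishevelled genes, to whose products Nkd1 binds, Dvl1 was at 10.4 RPKM in the adenoma pool and 10.9 RPKM in the control pool and Dvl3 at 2.80 and 6.18 RPKM.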
